A study of Mus musculus with 16 samples.

Results

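Sulfur amino acid and hydrogen sulfide metabolism was followed through 8 enzyme genes, Tst, Cbs, Cth, Mpst, Sqor, Ethe1, Cdo1 and Suox, in white fat of diet-induced obese mice. The genes were found by name among 25697 array probes for 17916 gene names. In capitals, as lists of such enzymes often give them, they are TST, CBS, CTH, MPST, SQRDL (the older name of Sqor, used on the array), ETHE1, CDO1 and SUOX, and they had 10 probes. They were brought together because Tst and Cbs were low in inguinal fat of mice fed a plant extract, so that the inguinal diet comparison is described for all 8 members without a test.

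The mice were male C57BL/6J, singly housed and obese on a high-fat diet with 60% of its energy as fat. From 17 to 21 weeks of age, for 4 weeks, they ate that diet as such (control) or with 1% by weight of an ethanolic extract of Artemisia scoparia, a plant of the wormwood genus (scoparia). Inguinal white adipose tissue (iWAT, a subcutaneous depot) and epididymal white adipose tissue (eWAT, a visceral depot) gave 4 arrays for each depot and diet. The same numbers recur in the labels of both depots and were taken as animal numbers, so that 8 mice gave 16 arrays. The labels do not say in words that a number marks the same mouse. All groups ate the high-fat diet, and no lean group is part of the comparison.

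Cells make cysteine from the methionine product homocysteine by transsulfuration, in which Cbs forms cystathionine and Cth cleaves it. Both enzymes, and Mpst from 3-mercaptopyruvate, can also release hydrogen sulfide, a gas that signals at low levels and blocks respiration at high ones. Mitochondria burn sulfide in steps: Sqor oxidises it to a persulfide and passes electrons to ubiquinone, Ethe1 oxidises the persulfide to sulfite, and Suox turns sulfite into sulfate. Tst (thiosulfate sulfurtransferase, also called rhodanese) moves sulfur between thiosulfate, persulfides and sulfite. It is known as an adipocyte gene tied to resistance to obesity in mice bred for leanness. Cdo1 takes cysteine the other way, to cysteine sulfinate and on to taurine, and is abundant in fat.

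Of these genes, 5 matched the RefSeq table of start sites on build GRCm38.p6 (Cbs, Mpst, Sqor, Ethe1 and Suox). The 250 bases before the first start site are shown for Cbs and Suox, which were low together with Tst in iWAT of scoparia mice, and for Mpst, the gene next to Tst on chromosome 15. They lie at chr17:31637206-31637455 on the minus strand, chr10:128673919-128674168 on the minus strand and chr15:78406462-78406711 on the plus strand. Each is written 5′ to 3′ on the strand of its gene, with capitals on matches to the GC box GGGCGG on either strand.
Cbs: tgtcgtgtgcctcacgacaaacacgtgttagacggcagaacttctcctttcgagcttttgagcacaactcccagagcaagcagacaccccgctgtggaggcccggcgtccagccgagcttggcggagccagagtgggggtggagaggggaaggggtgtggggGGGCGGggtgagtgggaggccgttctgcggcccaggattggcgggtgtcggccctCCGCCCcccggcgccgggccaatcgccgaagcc
Suox: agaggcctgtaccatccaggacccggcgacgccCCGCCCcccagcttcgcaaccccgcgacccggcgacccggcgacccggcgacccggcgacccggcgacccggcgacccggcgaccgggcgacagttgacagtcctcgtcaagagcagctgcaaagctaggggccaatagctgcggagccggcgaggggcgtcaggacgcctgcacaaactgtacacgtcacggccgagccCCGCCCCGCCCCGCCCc
Mpst: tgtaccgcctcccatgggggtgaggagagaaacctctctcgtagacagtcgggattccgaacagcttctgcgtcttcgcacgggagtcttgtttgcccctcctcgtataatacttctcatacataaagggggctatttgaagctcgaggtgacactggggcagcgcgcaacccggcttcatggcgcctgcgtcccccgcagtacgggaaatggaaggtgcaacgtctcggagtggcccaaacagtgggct

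The Cbs window held 2 GC boxes, the Suox window 4, of which 3 follow each other and share a base with the next, and the Mpst window none (0). A GC box stood in 32.7% of the 32851 start-site windows of the same length. The GC content was 68.0% for Cbs, 74.4% for Suox and 58.0% for Mpst, against a median of 52.4% over all windows. The box CCAAT, read on both strands, matched 2 times in Cbs, 1 time in Suox and 0 times in Mpst, and stood in 33.8% of all windows. The E-box CACGTG matched once in Cbs and stood in 6.02% of windows. The TATA box TATAAA (12.4% of windows), the antioxidant response core TGACNNNGC (10.2%) and the amino acid response letters TGATGNAAN (3.44%) had no match in these 3 windows. Among the other matched members, GC boxes also stood before Ethe1, 1 before its first start site and 3 before its second, and 0 before Sqor. CCAAT matched 2 times before Sqor and 1 time before the first start site of Ethe1. The amino acid response letters were found once, before Sqor, and the antioxidant core once, before the second start site of Mpst. These matches describe the letters only.

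All values below are log2 normalized intensities of 1 probe per gene, and a probe is called detected on an array when its detection p against the array's negative controls is under 0.05. Levels of different probes are not comparable, so each gene is compared only with itself. Between 50.48% and 56.22% of probes were detected per array. The adipocyte genes Adipoq, Plin1 and Fabp4 were detected on all 16 arrays, and the mesothelial genes Msln, Upk1b and Lrrn4 on every eWAT array and on no iWAT array. Other mesothelial markers split less cleanly. Gpm6a was detected on 2 iWAT control and 4 iWAT scoparia arrays, Upk3b on 1 iWAT scoparia array and Krt19 on 1 iWAT control array. Krt18 was detected on 3 eWAT arrays of each diet. On the first principal component (40.6% of the variance) eWAT control array 2 lay at -9.32, apart from the other eWAT arrays (23.4 to 44.9). The second component (24.5%) set iWAT control arrays 1 and 4, at 48.7 and 34.2, apart from the remaining iWAT arrays, at -59.9 to -13.8. Results are therefore also given without these arrays.

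**Figure D1:**
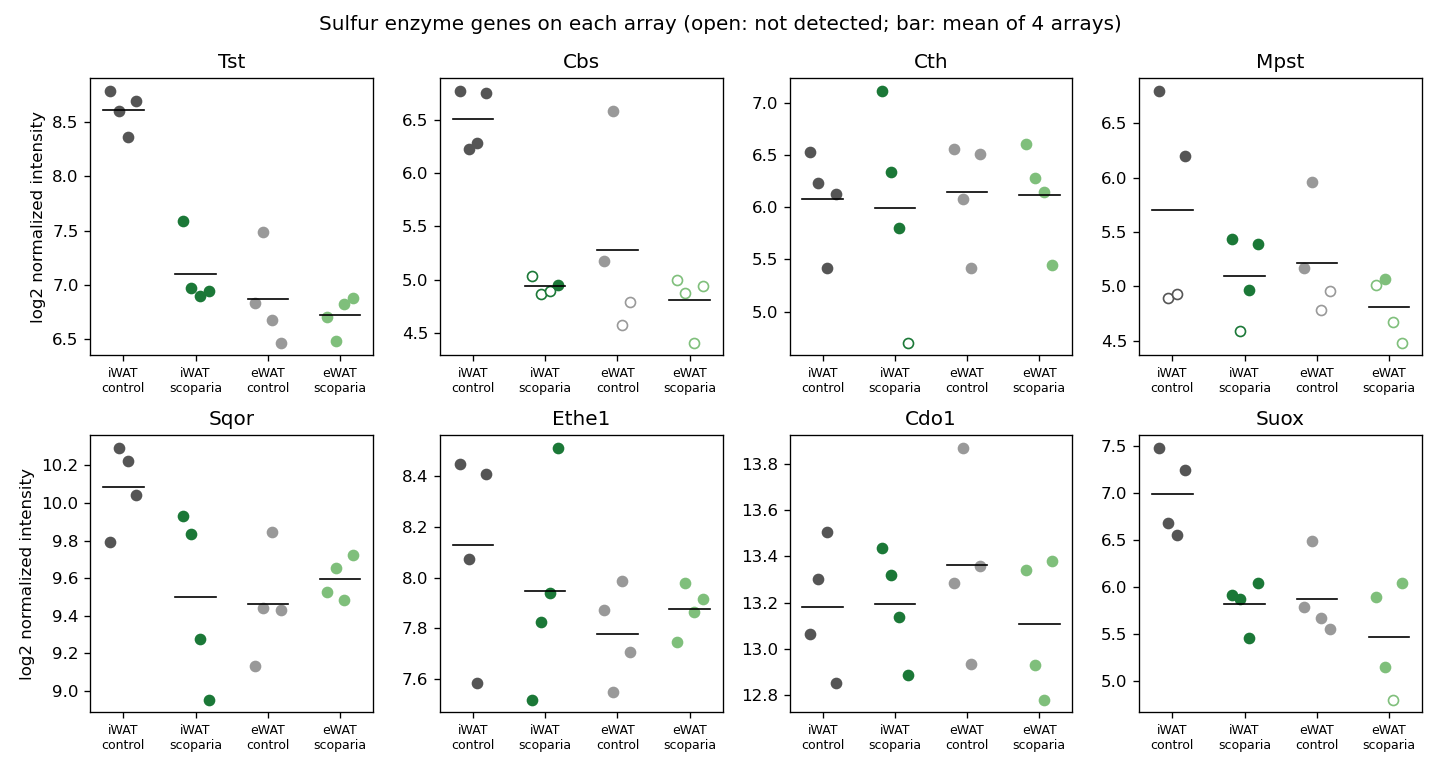
Log2 normalized intensity (y axis of each panel) of the 8 sulfur enzyme genes on each of the 16 arrays, in the 4 depot and diet groups. Each point is 1 array, open points are arrays on which the probe was not detected, and the bar is the mean of 4 arrays; for Tst, Cbs and Suox all 4 iWAT control points lie above all 4 iWAT scoparia points.

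In iWAT, Tst, Cbs and Suox were the members whose 4 scoparia arrays all lay below the 4 control arrays. Lower scoparia values without overlap were found for 8.97% of all 11050 genes tested, and since the members were picked on this contrast nothing is read from the 3 of 8. The difference was negative for 7 of 8 members, with a median of -0.60, against 54.4% of all genes and a median of -0.06. Tst and Cbs, picked on this contrast, are among the members, so nothing is read from that count or median either. Without iWAT control arrays 1 and 4 the count was 5 of 8. In bulk tissue, fewer cells of a type and less RNA per cell cannot be told apart.

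Tst stood at 8.79, 8.61, 8.36 and 8.69 on iWAT control arrays 1 to 4 and at 7.59, 6.97, 6.89 and 6.95 on the scoparia arrays. The lowest control array and the highest scoparia array were 0.77 apart. Group means were 8.61 ± 0.18 and 7.10 ± 0.33 (SD, n = 4 arrays each), a difference of -1.51 ± 0.22 (SE), which makes scoparia 2.85-fold lower. Of all 11050 genes, 7 had a lower difference, a rank from which nothing is read, since Tst was picked on this contrast. The gene was detected on all 16 arrays. Without iWAT control arrays 1 and 4 the difference was -1.37.

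The order of the Tst group means was iWAT control, iWAT scoparia, eWAT control (6.87 ± 0.44) and eWAT scoparia (6.72 ± 0.18, n = 4 each). Only the first step in this order was free of overlap, since iWAT scoparia arrays reached down to 6.89 and eWAT control arrays up to 7.49.

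Cbs, which commits homocysteine to cysteine synthesis, stood at 6.77, 6.22, 6.28 and 6.75 on the iWAT control arrays and at 5.03, 4.87, 4.90 and 4.95 on the scoparia arrays. It was detected on all 4 control arrays and on 1 of 4 scoparia arrays, so the scoparia level lies at the edge of detection. The means were 6.51 ± 0.29 and 4.94 ± 0.07 (SD, n = 4 each), a difference of -1.57 ± 0.32 (SE). Near the detection limit this size depends on the offset added before the log: with an offset of 50 it was -0.95, smaller than the -1.31 of Tst under the same setting. The other Cbs probe on the same arrays gave 6.42 ± 0.22 and 4.92 ± 0.30 (SD, n = 4 each), again without overlap, and was detected on 4 control and 2 scoparia arrays. Without iWAT control arrays 1 and 4 the difference of the first probe was -1.34.

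Suox, which makes the final sulfate of sulfide and cysteine breakdown, stood at 7.48, 6.68, 6.55 and 7.25 in iWAT control and at 5.91, 5.88, 5.46 and 6.04 in iWAT scoparia mice. The groups were 0.51 apart at their nearest arrays. The means were 6.99 ± 0.44 and 5.82 ± 0.25 (SD, n = 4 each), a difference of -1.16 ± 0.29 (SE) or 2.24-fold lower in scoparia. This size depends on the processing: it was -0.83 with an offset of 50 and -1.45 with the authors' normalized values. Control arrays 1 and 4 were the highest, and without them the difference was -0.79.

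Sqor and Ethe1, the enzymes between sulfide and sulfite, had overlapping groups. Sqor stood at 9.79, 10.29, 10.22 and 10.04 in iWAT control and at 9.93, 9.84, 9.28 and 8.95 in scoparia mice. Scoparia arrays 1 and 2 lay within the control range and arrays 3 and 4 below it, with a difference of -0.59 ± 0.21 (SE). Ethe1 ranged from 7.58 to 8.45 in control and from 7.52 to 8.51 in scoparia mice, with a difference of -0.18 ± 0.22. The sign turned, to 0.12, when iWAT control arrays 1 and 4 were left out.

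Mpst, the sulfurtransferase encoded next to Tst, stood at 6.80, 4.89, 4.93 and 6.20 in iWAT control and at 5.44, 4.59, 4.97 and 5.38 in scoparia mice. It was detected on 2 control and 3 scoparia arrays, and the 2 control arrays that detected it were arrays 1 and 4. The difference was -0.61 ± 0.38 with all arrays and 0.19 without those 2 arrays. For Mpst the sign therefore rested on the arrays that stand apart.

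For Cth and Cdo1, which make and oxidise cysteine, the iWAT groups overlapped and the mean differences lay near 0. Cth stood at 6.53, 6.23, 5.41 and 6.13 in control and at 7.11, 6.33, 5.80 and 4.70 in scoparia mice, a difference of -0.09 ± 0.42, and of 0.16 without iWAT control arrays 1 and 4. Its other probe was detected on no array. Cdo1 ranged from 12.85 to 13.50 and from 12.89 to 13.43, a difference of 0.01 ± 0.22, and was -0.21 without those arrays and -0.52 when only the array medians were made equal.

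**Figure D2:**
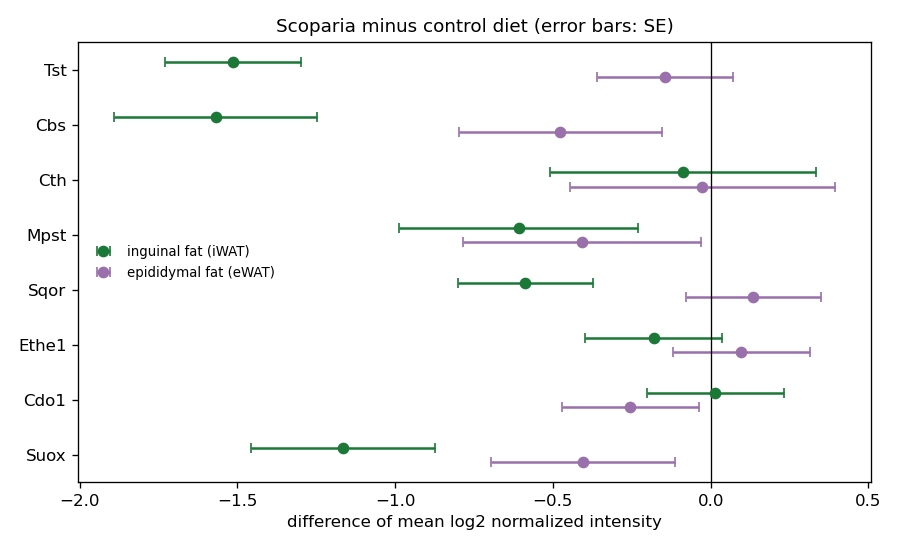
Difference of mean log2 normalized intensity, scoparia minus control diet (x axis), for each of the 8 genes (y axis) in iWAT and in eWAT. Points are differences of 4 against 4 arrays and bars are SE; in iWAT the points of Cbs (-1.57), Tst (-1.51) and Suox (-1.16) lie farthest from 0, and in eWAT all points lie between -0.48 and 0.13.

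Adipocyte content was read from 12 marker genes, all measured. Their mean ran from 12.37 to 12.70 in iWAT control and from 11.93 to 12.43 in iWAT scoparia mice, a difference of -0.35 with 0 of 12 past the threshold. Within the list, Cebpa stood at -1.06, Lipe at -0.96, Slc2a4 at -0.90, Plin1 at -0.71, Cfd at -0.52 and Pnpla2 at -0.46. Adipoq (0.02), Fabp4 (0.03), Lpl (0.09) and Cidec (-0.09) lay near 0, and Pparg (0.21) and Lep (0.18) above it. The list mean thus mixes markers that differ in both directions. Taken relative to the adipocyte mean of the same array, Tst was lower in scoparia by -1.17, Cbs by -1.22 and Suox by -0.82. These are the arrays on which Tst and Cbs were picked, and the part of adipocyte content in the differences was not tested. On this relative scale Mpst (-0.26), Sqor (-0.24), Ethe1 (0.17), Cth (0.26) and Cdo1 (0.36) stood closer to 0 or above it.

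The means of the lymphocyte marker lists were higher in iWAT of scoparia mice. B cell markers (7 of 10 measured) had means from 5.32 to 8.57 in control and from 6.85 to 10.21 in scoparia mice, with Pax5 detected on no array. T and NK cell markers (8 of 10 measured, Cd8a detected on no array) ran from 6.94 to 9.56 and from 7.82 to 10.89. The differences of these lists were 1.75 and 1.20, with 0 and 1 members past the threshold, and their part in the member differences was not tested. The other lists differed by -0.18 for skeletal muscle, -0.16 for macrophages, 0.07 for endothelium, 0.07 for mesothelium, 0.11 for fibroblasts and 0.14 for epithelium. The share of probes detected was 50.48% to 52.13% in iWAT control and 52.73% to 56.22% in iWAT scoparia mice, and its part was not tested either.

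**Figure D3:**
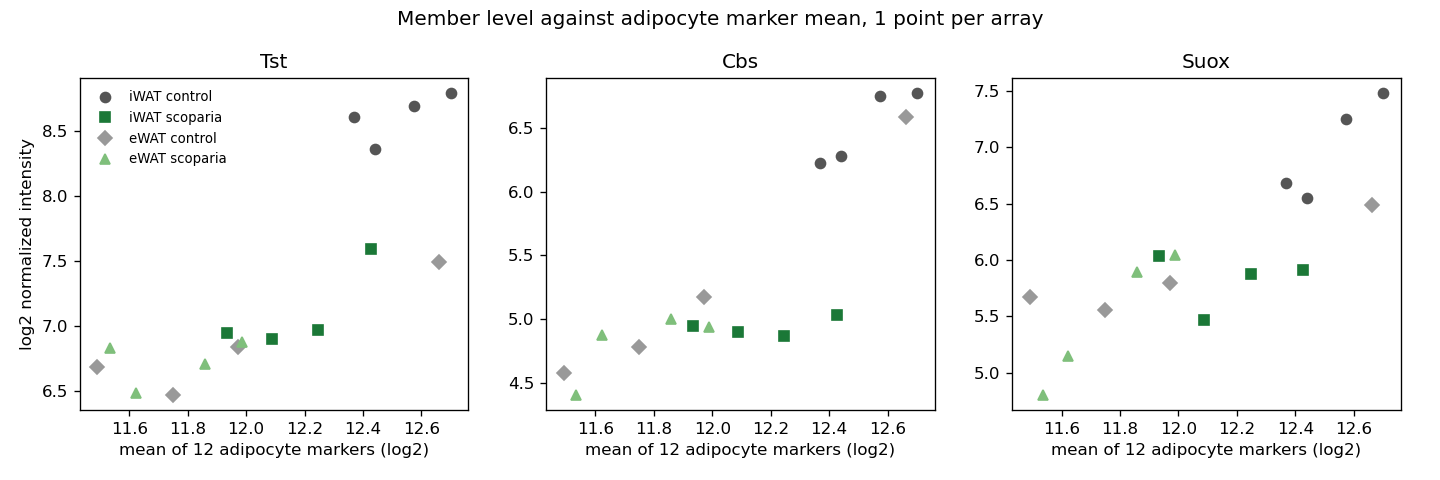
Log2 normalized intensity of Tst, Cbs and Suox (y axes) against the mean log2 intensity of 12 adipocyte markers on the same array (x axis), 1 point per array and 1 symbol per group. For Tst the iWAT control arrays lie between 8.36 and 8.79 and every other array at or below 7.59; for Cbs, eWAT control array 2 (6.59) lies among the iWAT control arrays.

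In eWAT, which shares no array with the iWAT diet comparison, the diet differences of all 8 members were tested, and 0 of 8 passed the threshold of an adjusted p under 0.05. The same held for the whole array, where limma called 0% of 11050 genes, with 654 at an unadjusted p under 0.05, and 0 of the 8 members among these. The members' adjusted p values ran from 0.917 to 0.997. The difference was negative for 6 of 8 members with a median of -0.20, against 44.1% of all genes and a median of 0.03. The difference between the depots was not tested, since it contains the comparison that chose the members.

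Tst stood at 6.84, 7.49, 6.68 and 6.47 in eWAT control and at 6.70, 6.48, 6.83 and 6.88 in eWAT scoparia mice. The groups overlapped, with a difference of -0.15 and a 95% confidence interval from -0.60 to 0.31 (limma adjusted p = 0.958). Control array 2 was the highest, and without it the difference was 0.06.

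Cbs stood at 5.18, 6.59, 4.58 and 4.79 in eWAT control and at 4.998, 4.88, 4.41 and 4.94 in eWAT scoparia mice. It was detected on control arrays 1 and 2 and on none of the 4 scoparia arrays (0). Against the detection floor the control mean was 1.17-fold higher, with measured means of 5.28 and 4.80 (limma adjusted p = 0.917). No lower bound is drawn from this, since control arrays 3 and 4 did not detect the probe either. The fitted difference of -0.48 had an interval from -1.16 to 0.21, and without control array 2 it was -0.04. The other Cbs probe stood at 4.85, 6.65, 4.94 and 4.82 in eWAT control and at 4.72, 4.47, 4.52 and 4.54 in scoparia mice, groups that did not overlap, as for 2.42% of all genes tested. It was detected on control array 2 alone, so the 2 probes differ here in values near or below the detection limit. Against the floor its control mean was 1.20-fold higher, again with no lower bound drawn, and this dimmer probe was not the one tested.

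Suox was 5.79, 6.49, 5.67 and 5.56 in eWAT control and 5.89, 5.15, 4.80 and 6.04 in scoparia mice, detected on 4 and 3 arrays. The difference was -0.40 with an interval from -1.02 to 0.21 (limma adjusted p = 0.921), and -0.20 without control array 2. Leaving out each array in turn gave -0.59 to -0.18. Its lowest and highest scoparia arrays bracket most of the control values.

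The other members gave differences of -0.41 for Mpst (interval -1.21 to 0.39, detected on 2 control and 1 scoparia arrays), -0.26 for Cdo1 (-0.71 to 0.20) and -0.03 for Cth (-0.92 to 0.86). Sqor, the sulfide oxidase, stood at 0.13 (-0.32 to 0.59) and Ethe1, the persulfide dioxygenase, at 0.10 (-0.36 to 0.56). None of these intervals excludes 0. Without control array 2, the difference was -0.16 for Mpst, -0.09 for Cdo1 and 0.02 for Ethe1.

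Control array 2 was the highest eWAT control array for 5 of the 8 members (Tst, Cbs, Mpst, Cdo1 and Suox), and for Cdo1 it read 13.87 against 12.93 to 13.36 on the other control arrays. Its adipocyte mean was 12.66, while the other eWAT arrays of both diets lay between 11.49 and 11.99. In eWAT the adipocyte list differed by -0.22, macrophages by 0.26, mesothelium by 0.41, epithelium by 0.33, endothelium by 0.06, fibroblasts by 0.07, muscle by -0.01, B cells by -0.07 and T and NK cells by -0.11 between diets, with 0 markers past the threshold.

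The depots were compared in each diet. In control mice Tst and Cbs were higher in iWAT than in eWAT by 1.75 and 1.22, values given without a test because the iWAT control arrays served to pick them. For Tst all iWAT control arrays (8.36 to 8.79) lay above all eWAT control arrays (6.47 to 7.49), as for 11.1% of all genes tested. For Cbs, eWAT control array 2 overlapped the iWAT range.

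Of the 6 other members, 2 were called in control mice, both higher in iWAT, beside 24.8% of all genes called and 13.1% called higher. Suox was higher by 1.11 ± 0.29 (SE; limma adjusted p = 0.0136), with means of 6.99 ± 0.44 and 5.88 ± 0.42 (SD, n = 4 each) and groups that did not overlap. Sqor was higher by 0.62 ± 0.21 (limma adjusted p = 0.0444), with means of 10.09 ± 0.22 and 9.46 ± 0.29 and overlapping groups.

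With the animal as a block, fitted on the 8 control arrays, neither passed (limma adjusted p = 0.0796 for Suox and 0.118 for Sqor). Without iWAT control arrays 1 and 4 the values were 0.74 (adjusted p = 0.176) and 0.78 (adjusted p = 0.0626). Leaving out each array in turn, Suox stayed called in 16 of 16 fits and Sqor in 5.

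Cell markers differed between the depots as well. In control mice all 9 macrophage markers and 6 of 7 mesothelial markers were called lower in iWAT, with list means lower by -1.67 and -2.69. Of the adipocyte markers 4 of 12 were called higher, with a list difference of 0.55. The lists differed by 1.63 for B cells (1 of 7 called higher), 1.33 for T and NK cells (4 of 8 higher, 1 lower), 2.34 for muscle (1 of 7 higher) and 0.59 for endothelium (3 of 7 higher). They differed by -1.06 for epithelium (1 of 4 higher, 2 lower) and -0.07 for fibroblasts (1 of 7 higher, 1 lower). In scoparia mice the lists differed by -2.09 for macrophages (9 of 9 called lower in iWAT) and -3.03 for mesothelium (7 of 7 lower). They differed by 3.45 for B cells (7 of 7 higher), 2.63 for T and NK cells (7 of 8 higher) and 0.42 for adipocytes (0 of 12 called). The part of these cells in the depot differences of Suox, Sqor, the other members and the sulfur genes given further below was not tested.

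Ethe1 (0.35), Mpst (0.49), Cth (-0.07) and Cdo1 (-0.18) had adjusted p values from 0.236 to 0.919 for the depot in control mice. In scoparia mice 0 of the 6 tested members were called by limma (adjusted p from 0.527 to 0.903, and 0 at an unadjusted p under 0.05), beside 10.6% of all genes. Tst stood 0.38 higher in iWAT than in eWAT of scoparia mice. Cbs was detected on 1 iWAT and 0 eWAT arrays of these mice, so no fold or direction is given for it. For Tst the lowest iWAT array (6.89) was 0.02 above the highest eWAT array, and 11.1% of all genes tested had iWAT above eWAT without overlap there. The control depot comparison and the iWAT diet comparison share the 4 iWAT control arrays, so their values do not stand as separate evidence.

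**Figure D4:**
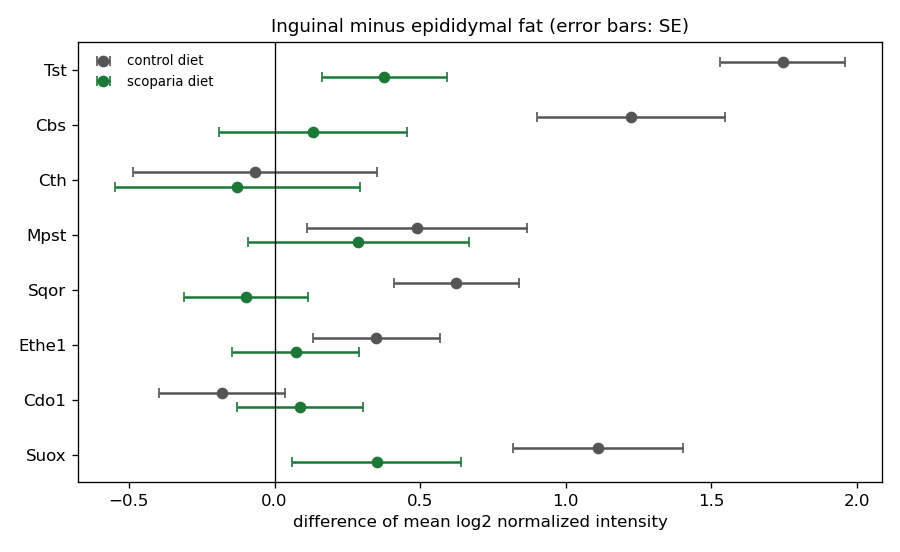
Difference of mean log2 normalized intensity, iWAT minus eWAT (x axis), for each of the 8 genes (y axis) in control and in scoparia mice. Points are differences of 4 against 4 arrays and bars are SE; in control mice Tst (1.75), Cbs (1.22) and Suox (1.11) lie farthest to the right, and in scoparia mice all 8 points lie between -0.13 and 0.38, that of Cbs at the edge of detection.

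Beyond the 8 members, 59 other genes of sulfur metabolism were listed, and 40 were measured. In iWAT, 2 of 40 were called between diets, both lower in scoparia, beside 8.80% of all genes called and 4.39% called lower. Glutathione synthetase (Gss), which completes glutathione from cysteine, fell by 0.98 ± 0.28 (SE) from 7.42 ± 0.64 to 6.43 ± 0.25 (SD, n = 4 each; limma adjusted p = 0.0402). The mitochondrial thioredoxin reductase Txnrd2 fell by 0.77 ± 0.21 from 9.24 ± 0.48 to 8.48 ± 0.35 (limma adjusted p = 0.0401). Without iWAT control arrays 1 and 4 both lost the call (-0.47 and -0.36, adjusted p = 0.455 and 0.451), as they did with the 8 iWAT arrays alone (adjusted p = 0.15 and 0.169).

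The 40 measured genes had a median of -0.12 in iWAT, with 24 negative. The sublists had medians of 0.22 for the methionine cycle (6 genes), -0.30 for methionine salvage (5), -0.12 for cysteine to taurine (5) and -0.05 for glutathione and cysteine uptake (10). They had -0.27 for other persulfide and thiosulfate genes (8) and 0.01 for sulfate activation and the molybdenum cofactor that Suox needs (6). In eWAT 0 of 40 were called by limma between diets, with 3 at an unadjusted p under 0.05, a median of -0.01 and 21 negative.

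**Figure D5:**
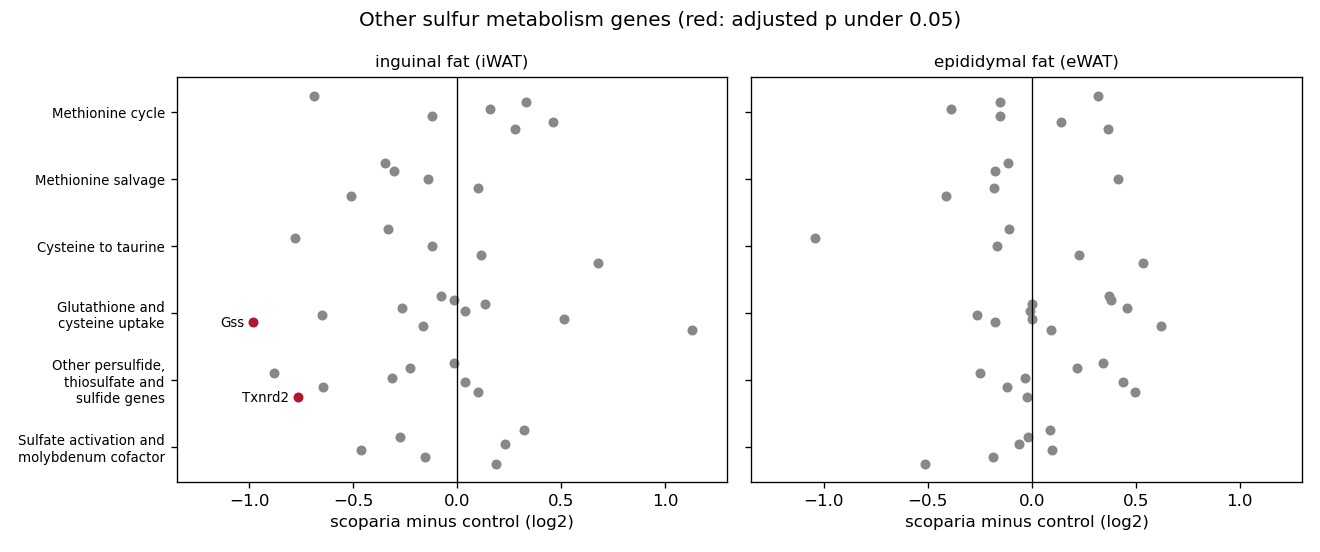
Difference of mean log2 normalized intensity, scoparia minus control (x axes), of 40 other sulfur metabolism genes in iWAT (left) and eWAT (right), by sublist (y axis). Each point is 1 gene and red marks an adjusted p under 0.05; Gss (-0.98) and Txnrd2 (-0.77) in iWAT are the 2 red points, and there is none in eWAT.

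Between depots in control mice, 8 of the 40 were called higher in iWAT and 1 higher in eWAT (22.5%, beside 24.8% of all genes, 13.1% higher in iWAT and 11.7% in eWAT). Kyat3 and Kyat1, transaminases that act on cysteine conjugates, were higher in iWAT by 1.19 ± 0.27 and 0.86 ± 0.25 (limma adjusted p = 0.00677 and 0.0214). Chac1, which degrades glutathione, was higher by 0.99 ± 0.24 (adjusted p = 0.00889) and Nfs1, the cysteine desulfurase of iron-sulfur cluster assembly, by 0.67 ± 0.17 (adjusted p = 0.0105). Thioredoxin (Txn1) was lower in iWAT by -0.88 ± 0.29 (adjusted p = 0.0378). With the animal as a block in limma on the 8 control arrays, 0 of the 40 passed, beside 3.67% of all genes. With iWAT control arrays 1 and 4 left out none of these 5 passed (adjusted p from 0.057 to 0.284), and Kyat1 was at 0.36.

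In scoparia mice 5 of the 40 were called between depots (12.5%, beside 10.6% of all genes). Higher in iWAT were 2, beside 4.35% of all genes, and higher in eWAT 3, beside 6.24%. Gclm, the regulatory subunit of glutamate-cysteine ligase, was lower in iWAT by -1.47 ± 0.28 (limma adjusted p = 0.00265). Txn1 and the cytosolic thioredoxin reductase Txnrd1 were lower by -1.29 ± 0.29 (adjusted p = 0.0086) and -1.12 ± 0.29 (adjusted p = 0.0198). Mat2a, which makes S-adenosylmethionine, was higher in iWAT by 0.62 ± 0.17 (adjusted p = 0.0291), and the flavin monooxygenase Fmo1, which oxidises hypotaurine, by 0.83 ± 0.24 (adjusted p = 0.0367). With the animal as a block on the 8 scoparia arrays 10 of the 40 passed, these 5 among them, beside 17.1% of all genes. With equal array medians Mat2a (0.34, adjusted p = 0.199) and Fmo1 (0.57, adjusted p = 0.105) lost their calls, and with the mean of its probes Mat2a did too (0.41, adjusted p = 0.248). Without a filter on dim probes Fmo1 had an adjusted p of 0.0526.

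Over all 16 arrays, the named genes with profiles most like that of Tst were Cox14 (Pearson r = 0.968), Tmem53 (0.961), Fam210b (0.960), Akap1 (0.957) and Mrps21 (0.956). For Cbs they were Tmem53 (0.955), Selenow (0.954), Pvr (0.951), Ephb6 (0.948) and Tufm (0.948). Cox14 is an assembly factor of cytochrome c oxidase, Mrps21 a mitochondrial ribosomal protein and Tufm the mitochondrial elongation factor. By the label numbers these points share animals, and they share the group differences described above, so the coefficients are descriptions. Over the 8 eWAT arrays alone, the nearest were Sdhb (0.982), Scarf1 (0.973), Vps11 (0.973), Actr1b (0.970) and Dyrk2 (0.969) for Tst. For Cbs they were Usp30 (0.993), Cd151 (0.989), Wbp1 (0.989), Sh3glb2 (0.989) and Tmem223 (0.987). None of the genes nearest over 16 arrays was among the 5 nearest over the eWAT arrays. Across 16 arrays Tst correlated with Suox at 0.875 and with Cbs at 0.888, and Cbs with Suox at 0.907, while Tst correlated with Cdo1 at 0.087.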

How the data were processed

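White fat of 8 mice, as the label numbers were read, was measured on 16 Illumina bead arrays, 4 per depot and diet. Per the file headers, the authors deposited an average signal and a detection p-value for each probe and array. From its values (lowest 92.2), the signal was taken as linear and not background-subtracted. The authors' normalized intensities, also deposited, have equal quantiles on all arrays, and the series value table holds the same values (largest difference 0). GenomeStudio and limma 3.18.13 are listed, per the submitters' processing notes, with no role given.

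Here the scanner intensities were corrected and quantile-normalized with neqc in limma 3.58.1 (R 4.3.3, offset 16) and taken to log2. Probes detected (p under 0.05) on at least 4 arrays were kept (15052 probes), and the brightest per gene was tested (11050 genes). All 8 members passed this filter, Cbs with 7 arrays and Mpst with 8. The Cbs arrays were 4 of iWAT control, 1 of iWAT scoparia and 2 of eWAT control. Without the iWAT control arrays, on which it was picked, Cbs would not have reached the minimum of 4. Array names were updated through RefSeq gene tables of GRCm38.p6. Tests used lmFit and eBayes over 4 group means, with Benjamini-Hochberg adjustment over all genes and a threshold of 0.05. The fit was tested on simulated data with independent noise. These held no shared animals and no arrays that stand apart, so nothing is drawn from them about such features. The number of arrays limits the precision. Arrays within a group carry separate numbers in the labels, taken to mark separate animals with 1 array per depot. The spread then holds animal and technical variation together.

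The members, the lists and the tests were chosen with earlier results of these data known. Named genes were the members, up to 4 called sulfur genes per direction and comparison, and the 5 genes most like Tst and Cbs, passing over predicted names. The motifs were chosen after the values were seen. Of the 59 listed genes, 19 were not measured. By the recurring numbers of the labels, taken as animal numbers, the depots of a mouse were treated as paired. The main tests did not use this pairing, which entered only the depot fits with the animal as a block. Diet and depot tests alike treated all arrays as independent with a shared estimate of the spread. Each SE therefore also holds the spread of groups outside its comparison. Deviations of an animal's 2 arrays from their group means correlated at -0.207 to 0.315 in control and 0.034 to 0.25 in scoparia mice. Alternatives were other scaling, values, offset, filters, probes, weights, samples and blocks.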

Additional observations from a re-analysis of the deposited data

Results flagged for a closer look

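Of 32 sets of 4 arrays (8 members in 4 groups), 1 held an array far from the others. Tst on iWAT scoparia array 1 stood at 7.59, and the nearest of the other scoparia arrays at 6.97, a gap of 0.892 of the group's range, above Dixon's 95% critical value for 4 samples. Chance marks about 1 in 20 such sets. Without this array the iWAT difference of Tst was -1.68.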

How the results depend on the processing

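Counts of called sulfur genes outside the member set varied with the settings, as did the share of all genes called. In the iWAT diet comparison, 2 of 40 were called (8.8% of all genes), against 8 with equal array medians (17.2%), 4 with offset 50 (10.4%), 4 with detection on all arrays of a group (11.7%), 1 without a filter on dim probes (4.11%), 5 with array weights (19.5%), 0 with the 8 arrays of the contrast (0%) and 0 without iWAT control arrays 1 and 4 (0.00914%). Leaving out single arrays gave 0 to 8 (8 without eWAT control array 2, 13.9%). The depot count in control mice, 9 (24.8%), was 3 with 8 arrays (6.5%), 3 without iWAT control arrays 1 and 4 (10.8%), and 3 to 16 with single arrays left out (16 without eWAT control array 2, 31.6%). In scoparia mice it was 5 (10.6%), against 12 with 8 arrays (18.8%), 20 with array weights (33.4%) and 2 to 8 with single arrays left out. The 2 members called between depots in control mice became 1 without the filter, 1 with 8 arrays, 0 without iWAT control arrays 1 and 4, and 1 to 2 with single arrays left out. With the replicate block (the animal between depots, the title number between diets) the counts were 0 members and 0 sulfur genes in control depots, 10 sulfur genes in scoparia depots and 0 in the iWAT diet comparison. Across diets, the title numbers are shared without a stated pairing, and deviations correlated at -0.319 to 0.178 in iWAT and -0.248 to 0.312 in eWAT. In eWAT, 0 members and 0 sulfur genes were called in every setting run.

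Signs turned only for differences that were not called or not tested. In the iWAT diet comparison, single arrays left out moved Cth from -0.47 to 0.34 and Cdo1 from -0.0951 to 0.12, and leaving out iWAT control arrays 1 and 4 turned Mpst, Ethe1, Cth and Cdo1. Cth also turned with array weights (0.0912) and the authors' normalized values (0.0208). Equal array medians gave 0.22 for Cdo1 between control depots, and -0.20 for Cdo1 and -3.063e-05 for Ethe1 between scoparia depots. Array weights gave 0.0861 for Cth, 0.0860 for Sqor and -0.0441 for Ethe1 between scoparia depots. Without iWAT control arrays 1 and 4, Mpst stood at -0.32 and Cdo1 at 0.0395 between control depots. With single arrays left out, Tst ran from -0.28 to 0.0620 and Cth from -0.27 to 0.20 in eWAT. Between control depots Cth ran from -0.31 to 0.15. Between scoparia depots Cth ran from -0.51 to 0.30, Sqor from -0.24 to 0.0854, Ethe1 from -0.12 to 0.22 and Cdo1 from -0.0205 to 0.19. The iWAT difference of Cbs was -0.95 with offset 50 and -1.78 with the authors' normalized values. The cause of these shifts was not tested.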
